A study of Mus musculus with 2 samples.

Results

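The SMAD family and the SMAD ubiquitin ligases were taken as 10 genes, Smad1 to Smad7, Smad9, Smurf1 and Smurf2, chosen by gene symbol from the 53832 genes of the table. Each symbol stood on 1 row, and all 10 genes had counts above 0 in both libraries. The data are polyadenylated RNA from mouse oocytes of 1 group with 2 libraries, replicates 1 and 2. Ovaries of female embryos were cultured under an added pressure of 33.3 kPa, and cells positive for Stella-CFP, a fluorescent reporter of the germ-line gene Dppa3, were then sorted for sequencing. The sample titles call these cells small oocytes. The sources used here do not give the strain, other alleles, the age of the embryos or the length of the culture. Nothing in the labels says that the libraries came from separate cultures or animals, so the spread between them may be technical. Both libraries had the same treatment, so the values describe pressure-treated oocytes and measure no effect of pressure.

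SMAD proteins carry the signals of the TGF-beta superfamily from receptors at the cell surface to the nucleus. Receptor-regulated SMADs (R-Smads) are phosphorylated by type I receptors, bind the common partner SMAD4 and act on target genes as a complex. Inhibitory SMADs and the HECT-type ubiquitin ligases SMURF1 and SMURF2 limit the signal. In the ovary, ligands of this family such as GDF9 and BMP15 are made by the oocyte and act largely on the granulosa cells around it, while BMP signalling also acts within germ cells earlier in development.

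The ends of the coding sequences set the R-Smads apart from the other Smads, and 5 ends are given. Type I receptors act on this end in the R-Smads, and Smad6 is shown for contrast. The bases are the last 30 of each coding sequence, 5′ to 3′, from GENCODE release M21 transcripts (GRCm38). Capitals mark the 12 bases before the stop codon where they spell the serine-rich tail SSxS (serine, serine, any residue, serine), which type I receptors phosphorylate.
Smad1: ccccacaatcctattTCATCCGTGTCTtaa
Smad5: ccgctgaaccccattTCTTCTGTTTCAtag
Smad9: ccacacaaccctatcTCTTCAGTGTCTtaa
Smad3: ccgagcatccgctgtTCCAGTGTGTCTtag
Smad6: ctggagatcctactcaacaaccacagatag
The tail was found in 5 of 5 R-Smads (Smad1, Smad2, Smad3, Smad5 and Smad9) and in 0 of 3 other Smads. These ends lie on chromosome 8 at 79339649 to 79339678 (minus strand, exon 7) for Smad1, on chromosome 13 at 56737449 to 56737478 (plus strand, exon 7) for Smad5, on chromosome 3 at 54797472 to 54797501 (plus strand, exon 6) for Smad9, and on chromosome 9 at 63650262 to 63650291 (minus strand, exon 9) for Smad3 and at 63953524 to 63953553 (minus strand, exon 4) for Smad6.

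A second short stretch links the Smads to the ligases. SMURF proteins bind a PPxY run (proline, proline, any residue, tyrosine) through their WW domains. The sites are shown as 30 coding bases each, with the 12 bases of the 4 codons in capitals.
Smad1: gacacacccCCACCTGCTTACctgcctcct
Smad5: gacacccctCCCCCTGCCTATatgccacct
Smad3: gaaaccccaCCTCCTGGCTACctgagtgaa
Smad6: gaatcaccgCCGCCCCCCTATtctcggctg
The stretch of Smad1 lies in exon 4 (chromosome 8, 79353415 to 79353444, minus strand) and that of Smad5 in exon 4 (chromosome 13, 56728512 to 56728541, plus strand). The stretches of Smad3 and Smad6 each cross an exon boundary on chromosome 9, minus strand. For Smad3 the first base is in exon 3 at 63667475 and the rest in exon 4 at 63666194 to 63666222, and for Smad6 the first base is in exon 1 at 64020205 and the rest in exon 2 at 64012243 to 64012271. Of the 8 Smads, 6 held a PPxY run in the transcript used. Smad6 held 2, and its other run, in exon 4, is not shown. Smad4 and the annotated transcript of Smad9 held none.

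Levels are given as TPM, the expected count per kilobase of merged exons scaled to a fixed sum per library, so that genes can be compared with each other. The libraries held 5019462 and 5274338 expected counts. The 10 genes together had 2833 counts in replicate 1 and 3017 in replicate 2. The levels fell into 3 ranges, with Smad4, Smad2, Smad5, Smad3, Smurf1 and Smurf2 between 17.9 and 119 TPM in each library, Smad1 at 4.53 and 4.81, and Smad7, Smad6 and Smad9 below 2. With expressed taken to mean 1 TPM or more in each library, 8 of 10 genes were expressed. The same held for 53.5% of protein-coding genes and for 25.7% of all annotated genes. The median TPM of the 10 genes was 24.3, against 2.57 over all protein-coding genes and 24.2 over the expressed ones. The 10 genes include Smad6 and Smad9, which were not expressed, so 24.3 and 24.2 are medians of unlike sets. Their closeness does not place the family at the middle of the expressed genes. By mean level, Smad4, Smad2, Smad5, Smad3 and Smurf1 lay above 24.2 TPM, and the other members lay below it.

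**Figure D1:**
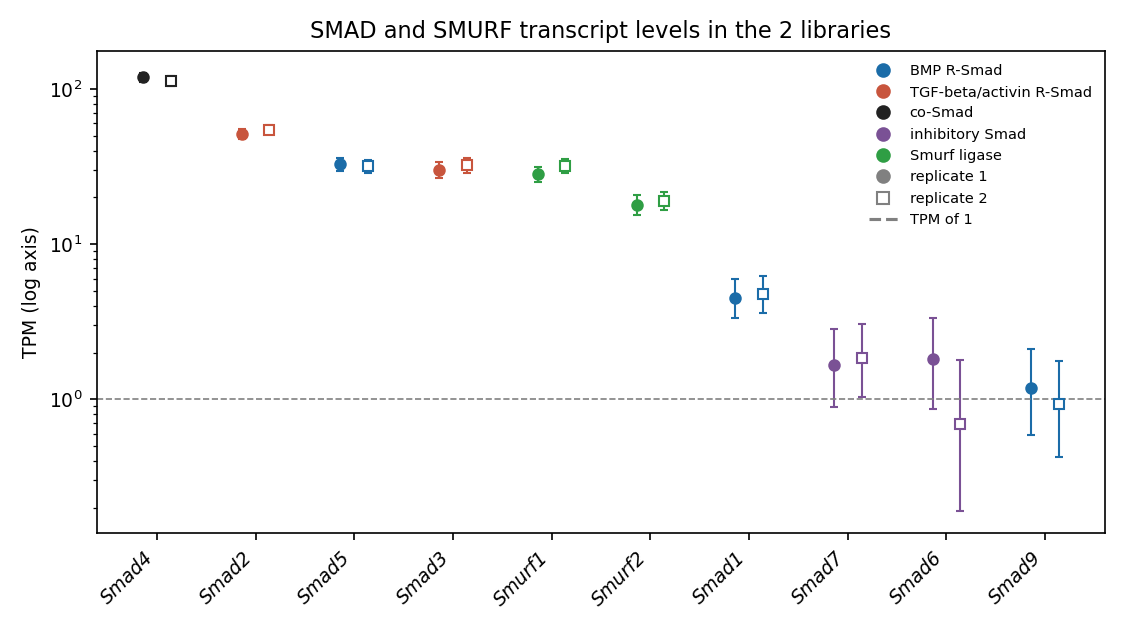
TPM (log axis) of each SMAD and SMURF gene in replicate 1 (filled circles) and replicate 2 (open squares), ordered by mean level and coloured by class; bars are exact Poisson 95% intervals of the count and cover counting error only. Smad4 stood highest at 119 and 113 TPM, and Smad7, Smad6 and Smad9 lay near the dashed line at a TPM of 1.

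Among the R-Smads of the BMP branch, Smad5 made up most of the RNA. Smad5 (ENSMUSG00000021540, chromosome 13, 56703010 to 56742377, plus strand) had 421 and 423 counts, or 32.8 and 31.8 TPM in replicates 1 and 2. Smad1 (ENSMUSG00000031681, chromosome 8, 79338395 to 79399518, minus strand) had 49 and 54 counts, or 4.53 and 4.81 TPM. Smad9 (ENSMUSG00000027796, chromosome 3, 54755582 to 54801257, plus strand), which encodes the protein also called SMAD8, had 11 and 9 counts, or 1.19 and 0.934 TPM. Smad5 was above Smad1, and Smad1 above Smad9, in each library with no overlap of their ranges. On the log2 scale the level of Smad5 over Smad1 was 2.79 ± 0.09 (SD, n = 2), a ratio of 6.92 between the levels. That ratio depends on the length used, because the annotation gives Smad1 6262 bases of merged exons but a longest transcript of 3775. With the longest transcript the log2 ratio was 2.23.

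Both R-Smads of the TGF-beta and activin branch were expressed. Smad2 (ENSMUSG00000024563, chromosome 18, 76241580 to 76310963, plus strand) had 778 and 864 counts, or 51.3 and 54.8 TPM. Smad3 (ENSMUSG00000032402, chromosome 9, 63646767 to 63757994, minus strand) had 289 and 321 counts, or 30.2 and 32.3 TPM. Smad2 was the higher of the pair in both libraries, with log2 ratios of 0.765 and 0.764 over Smad3 (counting SEs 0.099 and 0.094). The 2 ratios lie closer together than counting error alone would place them, so their likeness is no measure of precision. With CPM the mean log2 ratio was 1.43. Smad3 and Smad5, neighbours in the order of levels from different branches, had overlapping ranges and are not told apart.

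Smad4, which encodes the partner shared by both branches, was the most abundant of the 10 per unit of length. Smad4 (ENSMUSG00000024515, chromosome 18, 73639009 to 73703780, minus strand) had 761.77 and 752 counts, or 119 and 113 TPM (116 ± 4.19, SD, n = 2). Its level exceeded that of 88.3% of expressed protein-coding genes, against 72.2% for Smad2 and 58.8% for Smad5. The summed level of the 5 R-Smads was about as high as that of Smad4, with a log2 ratio of Smad4 over the R-Smads of -0.02 in replicate 1 and -0.14 in replicate 2. The mean of -0.08 ± 0.09 lay within its SD of 0, so neither side is read as higher. This near equality holds per unit of length: with counts divided by the library total alone (CPM), the log2 ratio was -1.09. Without length scaling, Smad2 stood above Smad4, at means of 159 CPM for Smad2 and 147 CPM for Smad4, so the first place of Smad4 depends on length scaling.

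The inhibitory Smads were near the limit of detection. SMAD6 acts mainly against BMP receptors, and SMAD7 against receptors of both branches. Smad6 (ENSMUSG00000036867, chromosome 9, 63953076 to 64022059, minus strand) had 10 and 4 counts, or 1.81 and 0.695 TPM. Smad7 (ENSMUSG00000025880, chromosome 18, 75367529 to 75395935, plus strand) had 13 and 15 counts, or 1.66 and 1.85 TPM. The ranges of Smad6, Smad7 and Smad9 overlapped between neighbours, and no order among the 3 is read. The log2 ratio of Smad6 over Smad7 was 0.12 in replicate 1 and -1.41 in replicate 2, with counting SEs of 0.61 and 0.81, so its direction was not detectable at this depth. In bulk RNA, fewer cells with a transcript and less RNA per cell cannot be told apart, so these values do not say whether a few cells held most of it.

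Both ligases were expressed, Smurf1 at a level like that of Smad3 and Smurf2 between Smad3 and Smad1. Smurf1 (ENSMUSG00000038780, chromosome 5, 144876495 to 144965847, minus strand) had 309 and 364 counts, or 28.2 and 32.0 TPM. Smurf2 (ENSMUSG00000018363, chromosome 11, 106820066 to 106920715, minus strand) had 191 and 211 counts, or 17.9 and 19.1 TPM. Smurf2 was the lower in both libraries, with a log2 ratio over Smurf1 of -0.70 ± 0.07 (SD, n = 2). The range of Smurf1 overlapped that of Smad3 and did not overlap that of Smurf2.

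By class, the BMP R-Smads summed to 38.0 ± 0.748 TPM and the TGF-beta and activin R-Smads to 84.3 ± 3.98 TPM. The log2 ratio of the BMP class over the TGF-beta class was -1.08 in replicate 1 and -1.22 in replicate 2, a mean of -1.15 ± 0.10. The BMP R-Smads were thus lower than the TGF-beta R-Smads by more than the spread between libraries. Of the summed TPM of all 8 Smads, Smad4 held 48.0 ± 1.41%, the TGF-beta and activin R-Smads 33.6% and 36.3% in replicates 1 and 2, the BMP R-Smads 15.8 ± 0.205% and the inhibitory Smads 1.25 ± 0.263%. The shares hold per unit of length. In counts, the TGF-beta and activin R-Smads had 1067 and 1185 in replicates 1 and 2, above the 761.77 and 752 of Smad4. All these values are RNA levels and do not give protein amounts or phosphorylation.

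**Figure D2:**
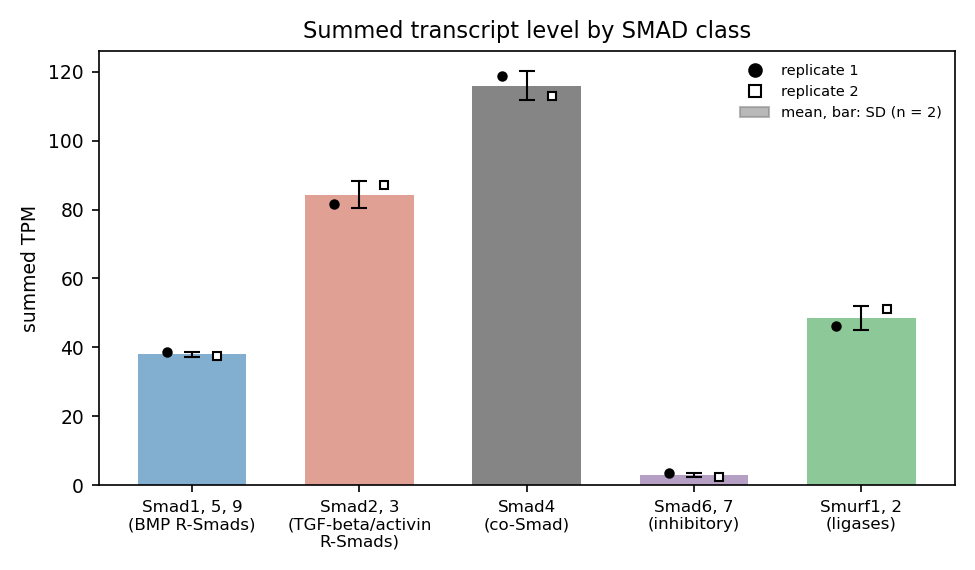
Summed TPM of each class, as the mean of the 2 libraries (columns, error bars SD, n = 2) with replicate 1 (filled circles) and replicate 2 (open squares). Smad4 alone, at 116 TPM, stood above both R-Smad classes, at 38.0 and 84.3 TPM, and the inhibitory Smads summed to 3.01 TPM. In counts, which are not scaled for length, the TGF-beta and activin R-Smads stood above Smad4, at 1067 and 1185 against 761.77 and 752.

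**Figure D3:**
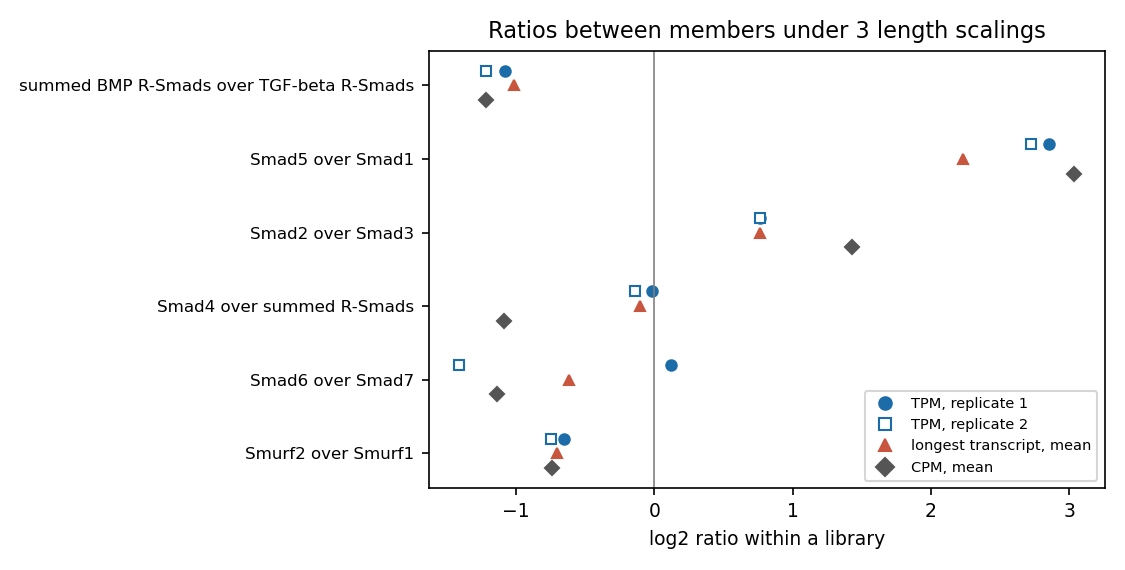
Log2 ratios between members within a library, from TPM in replicates 1 and 2 (blue), from the length of the longest transcript (triangles, mean) and from CPM without length scaling (diamonds, mean). Smad5 stood above Smad1 and Smad2 above Smad3 under all 3 scalings shown, while Smad6 over Smad7 lay on both sides of 0.

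Several of the genes share a chromosome. Smad3 and Smad6 lie 195.1 kb apart on the same strand of chromosome 9. Smad2, Smad4 and Smad7 lie on chromosome 18, with Smad7 845.6 kb from Smad2 and 1664 kb from Smad4, and Smad2 2538 kb from Smad4. The levels of linked genes differed, at 31.2 ± 1.48 TPM for Smad3 against 1.25 ± 0.786 for Smad6, and at 53.1 ± 2.50 for Smad2 against 1.76 ± 0.130 for Smad7. No 50-base run was shared between annotated transcripts of different members, so reads of the paralogues are separable at that length. Smad9 shared 4 such runs, 0.0752% of its own, with Yipf1, a gene on chromosome 4 with 385 and 430 counts, and the effect on the 11 and 9 counts of Smad9 was not tested. Smad4 was the member with a fractional count. The 6 annotated genes that overlap a member (Gm50126, Gm27271, Gm27301, Gm27834, Mir7039 and Gm27322) had 0 counts in both libraries.

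The 2 libraries were compared with each other to see how firm the members' levels are. The counts of each gene were tested against TMM-scaled library sizes with a two-sided exact binomial test, which allows for counting noise alone and compares libraries, not conditions. Of the 10 genes, 8 passed the filter on low counts, and Smad6 and Smad9 did not. By the rule of an adjusted p under 0.05 with a 2-fold minimum, 0 of the 8 were called, against 0.673% of 12182 genes. An unadjusted p under 0.05 was likewise reached by 0 of the 8, against 20.7% of all tested genes. The negative binomial exact test of edgeR with a preset variation called 0 of the 8 at 2-fold and gave 0 an unadjusted p under 0.05, against 0.107% and 3.61% of all tested genes. The median log2 ratio of replicate 2 over replicate 1 was 0.08 for the 8 genes and 0.00 for all tested genes.

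Smurf1 had the largest of the 8 ratios, at 0.17 (counting SE 0.11, adjusted p = 0.417, exact binomial test with Benjamini-Hochberg adjustment). Smad2 stood at 0.08 (SE 0.07) and Smad4 at -0.09 (SE 0.07), with 95% intervals of -0.06 to 0.22 and -0.23 to 0.06. Each interval holds values of both signs, so neither ratio was told apart from counting error. For Smad7, with 13 and 15 counts, the interval ran from -0.92 to 1.19. It holds both signs and reaches beyond 2-fold on its upper side, so no direction is read. Smad6, at -1.28 (SE 0.81) with no filter, had an interval of -2.88 to 0.31.

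**Figure D4:**
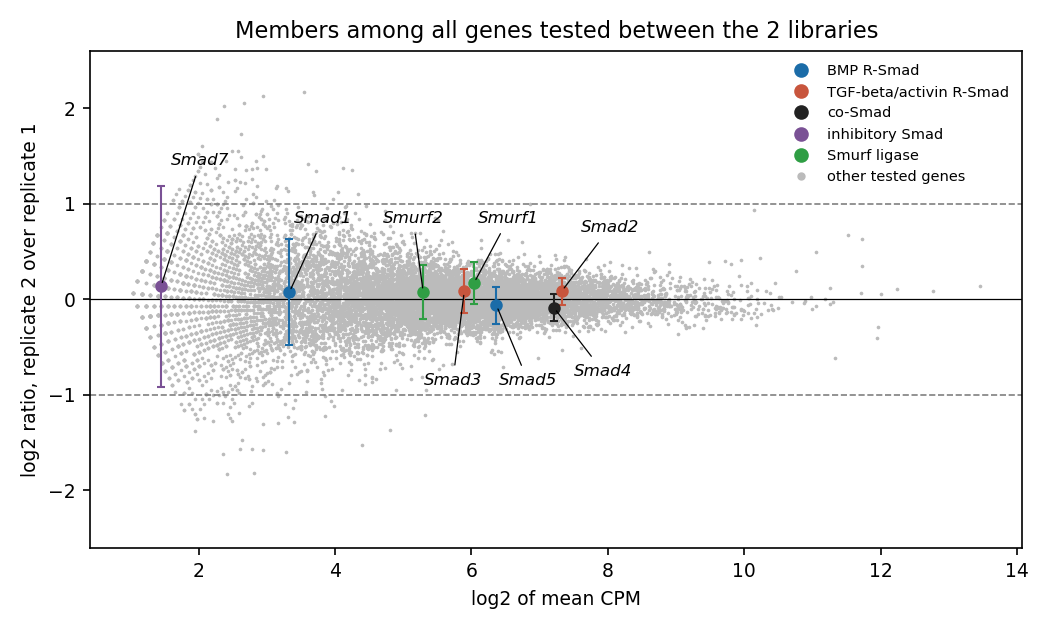
Log2 ratio of replicate 2 over replicate 1 against log2 of mean CPM for all 12182 tested genes (grey) and the 8 members tested (coloured by class; bars are 95% counting intervals); dashed lines mark 2-fold. The members lie between -0.09 and 0.17, and Smad7, with the fewest counts, has the widest interval.

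The sorted cells were checked against markers. All 10 germ cell markers were expressed, at a median TPM of 862. Of 33 markers of other ovarian and blood cells in 4 lists, 8 were expressed, and all 33 together had 251 counts in replicate 1 and 193 in replicate 2. Of the 8, Mfap4 averaged 9.31 TPM, Hbb-bs 3.32, Pecam1 2.79, Nr0b1 2.36, Kitl 2.12, Col1a1 1.81, Dcn 1.76 and Gata4 1.68. Smad7, at 1.76 TPM on average, lay within this range, and Smad6 at 1.25 and Smad9 at 1.06 lay below it. The 10 granulosa markers had 91 and 56 counts, with Fshr at 0 in both libraries, and the 8 endothelial and perivascular markers had 63 and 39, with Emcn at 0. Stroma markers had 91 and 91 counts, with Tcf21 at 0, and the 7 immune and erythroid markers 6 and 7, with 4 of them at 0. Summed TPM, which allows for depth, was 15.9 and 8.52 in replicates 1 and 2 for granulosa markers. It was 7.67 and 3.76 for endothelial and perivascular, 14.7 and 13.6 for stroma, and 4.44 and 4.74 for immune and erythroid markers. Differences of these sums between the libraries were not tested. Smad6 had 10 and 4 counts, but its log2 ratio had an interval of -2.88 to 0.31, so no direction is read. The part of such cells in the counts of Smad6, Smad7 and Smad9 was not tested.

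The rest of the pathway was read from 12 lists with 95 genes that are not members. Of these, 68 were expressed. Of 67 tested between the libraries, 2 were higher and 5 lower in replicate 2 at an adjusted p under 0.05, and 0 reached 2-fold. Together they were 10.4% of those tested, against 7.84% of all tested genes, of which 4.25% were higher and 3.59% lower.

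Upstream of the Smads, type I receptors of both branches were present. Of 7 type I receptor genes, 5 were expressed, led by Tgfbr1, the TGF-beta receptor kinase, at 64.9 and 68.5 TPM, and Bmpr1a, a BMP receptor kinase, at 48.5 and 48.8 TPM. Acvrl1 had 3 and 0 counts and Acvr1c had 0 in both. A count of 0 allows up to 0.598 CPM in replicate 1 and 0.569 CPM in replicate 2. As a list, type II receptors were lower per unit of length, with a median TPM of 10.5 against 24.2, and 3 of 5 were expressed. The lists overlapped, since the type I gene Acvr1 averaged 3.24 TPM. In counts, Bmpr2, with 403 and 451, lay between the type I genes Bmpr1a, with 532 and 556, and Acvr1b, with 164 and 214. Acvr2a, an activin receptor, stood at 15.8 ± 0.280 TPM (SD, n = 2) and Bmpr2, the BMP type II receptor, at 13.5 ± 0.708 TPM, while the TGF-beta type II receptor Tgfbr2 had 0 and 2 counts. Amhr2, the receptor of anti-Müllerian hormone and also a granulosa marker, had 17 and 3 counts. The kinase gene Tgfbr1 was thus well above its usual partner Tgfbr2 in RNA.

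Of 7 co-receptors and decoys, 4 were expressed, with Rgmb, a BMP co-receptor, at 9.54 ± 0.685 TPM and Tgfbr3 (betaglycan) at 8.98 ± 0.0522 TPM (SD, n = 2), against Tdgf1 with 1 and 0 counts and Hjv with 0. Of 15 ligands, 6 were expressed. Gdf9 was the highest, with 369 and 477 TPM, and its paralogue Bmp15 followed at 16.6 and 14.8 TPM. Tgfb1 had 0 and 1 counts and Nodal had 0. Gdf9 was higher in replicate 2, with a log2 ratio of 0.36 (SE 0.05, adjusted p = 3.14e-09, exact binomial test), whereas no SMAD or SMURF gene passed that test.

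Genes that handle SMAD proteins in the cytoplasm and nucleus were all expressed. All 9 anchors and transport genes reached a TPM of 1, from Hgs, an endosomal sorting protein, at 264 and 294 TPM and Kpnb1 (importin beta) at 157 and 158 TPM to Ipo7 at 16.6 and 14.9 TPM and Zfyve16 at 13.9 and 12.6 TPM. All 6 kinases that phosphorylate the linker between the SMAD domains did too, from Mapk3 at 184 and 206 TPM to Cdk8 at 43.5 ± 1.20 TPM and Gsk3b at 25.2 ± 1.66 TPM. All 5 SMAD phosphatases were expressed, from Ctdsp2 at 135 and 136 TPM and Ctdnep1 at 82.5 and 80.2 TPM to Ppm1a at 35.5 and 30.1 TPM and Ctdspl at 4.80 and 6.01 TPM. Lower in replicate 2 were Ppm1a, with a log2 ratio of -0.25 (SE 0.08, adjusted p = 0.0205, exact binomial test), and Cdk9, named after its value was seen, with one of -0.32 (SE 0.10, adjusted p = 0.0333).

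Other ubiquitin genes of the pathway stood both above and below the levels of the Smurfs. The other NEDD4-family ligases, relatives of the SMURFs that also carry WW and HECT domains, were all 5 expressed, with Wwp2 at 53.9 and 57.5 TPM, Wwp1 at 35.8 and 40.7 TPM, Nedd4 at 10.2 and 10.8 TPM and Nedd4l at 6.16 and 6.34 TPM. Smurf1 and Smurf2, at 30.1 and 18.5 TPM on average, lay between the 2 highest and the 2 lowest of these. All 9 further ligase and deubiquitinase genes were expressed, led by Otub1 at 211 and 192 TPM and Stub1 at 159 and 137 TPM, with Rnf111, a ligase that degrades SMAD7 and SKI proteins, at 17.5 and 19.1 TPM and Usp11 at 13.9 and 18.4 TPM. The deubiquitinase of SMAD4, Usp9x, named after its value was seen, was higher in replicate 2, with a log2 ratio of 0.11 (SE 0.03, adjusted p = 0.026, exact binomial test).

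**Figure D5:**
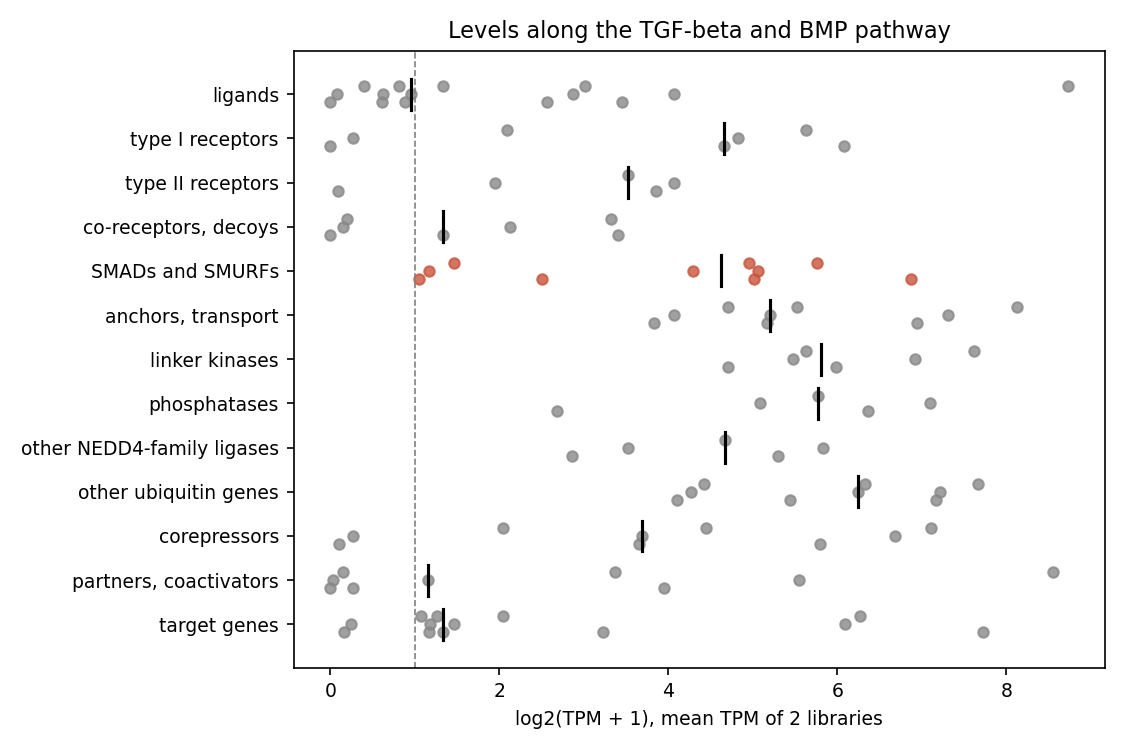
log2(TPM + 1) of the mean TPM of 2 libraries for each gene of the pathway lists (grey) and for the SMAD and SMURF genes (red); short vertical lines are list medians and the dashed line is a TPM of 1. Ligands have a median of 0.938 TPM and target genes one of 1.52 TPM, against 24.3 TPM for the SMAD and SMURF genes.

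In the nucleus, 7 of 9 corepressors were expressed. Ctbp1 stood at 146 and 128 TPM and Ski, which binds SMAD complexes, at 102 and 101 TPM, while Mecom had 0 and 9 counts and Zeb2 had 2 and 3. Of 9 partners and coactivators, 4 were expressed, led by Ybx1 at 413 and 339 TPM and the acetyltransferase gene Ep300 at 43.7 and 48.1 TPM, with Runx1 at 0 and 1 counts and Runx2 at 0. Ctbp1 and Ybx1 were lower in replicate 2, with log2 ratios of -0.19 (SE 0.06, adjusted p = 0.0308, exact binomial test) and -0.29 (SE 0.05, adjusted p = 5.89e-07).

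The target genes were uneven. Of 13 genes that SMAD complexes are known to induce, which include Smad6 and Smad7 themselves, 8 were expressed, at a median TPM of 1.52. Id1, a target of the BMP R-Smads, had 500 and 359 counts, or 250 and 172 TPM, and Id3, its relative, stood at 79.2 and 73.1 TPM. Msx1 had 2 and 0 counts and Atoh8 had 1 and 0. The ID genes at the top of the list were thus far above the inhibitory Smads of the same list, at 1.76 TPM or less on average. Id1 was lower in replicate 2, with a log2 ratio of -0.55 (SE 0.10, adjusted p = 5.82e-06, exact binomial test), while the BMP R-Smads Smad5 and Smad1 had ratios of -0.06 (SE 0.10) and 0.07 (SE 0.28). These p-values allow for counting noise alone. Over the 12182 tested genes, edgeR put the variation between the libraries beyond counting noise at 7.31%. The program calls this the biological coefficient of variation (BCV), but between these libraries it may be technical.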

How the data were processed

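The authors deposited expected counts per gene, as RSEM estimates them, scaled neither for depth nor for length. Reads were handled with fastp 0.20.0, STAR 2.7.7a and RSEM on GRCm38, per the submitters' processing notes. The sources used here do not give settings or the annotation release. Per the labels' protocols, poly(A) RNA was made into strand-specific libraries with 12 cycles of PCR. Of the table, 21 further columns match no sample here and were not used. IDs were matched to GENCODE M21 (53579 of 53832).

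TPM was computed from expected counts and merged exon lengths with pandas 2.3.3. Errors are SDs over 2 libraries. Intervals are exact Poisson 95% intervals and, like the floor of 3 counts, cover counting error only, since PCR copies are not independent molecules. Neighbours in the order were told apart where the ranges of their libraries did not overlap.

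For the library comparison, expected counts were rounded, filtered with filterByExpr and scaled by TMM in edgeR 4.0.16, then tested by an exact binomial test with Benjamini-Hochberg adjustment over 12182 genes, with a prior count of 0.5 for log2 ratios. The test was run on simulated Poisson counts, which hold counting noise alone, as the test itself assumes. Known changes were placed only in genes with more counts than Smad6, Smad7 and Smad9. The simulation thus does not show how the test behaves with variation beyond counting noise or at such low counts. Alternatives were CPM, longest-transcript lengths, a threshold of 5, a pseudocount of 0.1, size factors of DESeq2 1.42.0, library totals, no filter, a prior count of 2, a negative binomial test with a preset BCV of 0.1, totals without mitochondrial genes, and each library left out. The members, the pathway lists and the tests were chosen with earlier results of these data known. Named genes are all members, the 2 highest and 2 lowest of each pathway list, and genes overlapping a member; 1 gene that this rule names is not reported here. Marker genes at 0 counts, expressed markers of other cells, Acvr1, Acvr1b, Cdk9, Usp9x and Yipf1 were named after their values were seen. With 2 libraries of 1 group, no likeness of patterns to other genes was computed.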

Additional observations from a re-analysis of the deposited data

How the results depend on the processing

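Length scaling moved several ratios between members. With CPM, the log2 ratio of Smad5 over Smad1 was 3.04, that of Smad2 over Smad3 was 1.43 and that of Smad4 over the summed R-Smads was -1.09, and the median log2 level of the members was 5.62. With the length of the longest transcript, BMP over TGF-beta R-Smads was -1.02, Smad5 over Smad1 was 2.23 and the median level was 4.47. Smad2 over Smad3 hardly changed with that length, at 0.760 against 0.765 in the main run. These settings keep the direction of each ratio and change only the lengths divided by. Leaving out a library gave -1.41 to 0.118 for Smad6 over Smad7, the 1 ratio that turned. The count of expressed members, 8 in the main run, was 6 at a threshold of 5 and 8 with the longest transcript. It was 9 with CPM, 9 with totals without mitochondrial genes, 10 in replicate 1 alone and 8 in replicate 2 alone. The count thus depends on the cut and the scaling. Members called stayed at 0 under all alternatives run for them. Over 12182 genes, the negative binomial test called 13 in place of 82, and with no filter 211 of 21288 were called. No paired analysis was possible because there is 1 group. Depth limits Smad6, Smad7 and Smad9, with 4 to 15 counts each.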
